A study of Monascus purpureus with 6 samples.

Results

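Chromatin modifying enzymes and readers of *M. purpureus* were taken as the unigenes, assembled transcripts named by their TRINITY identifiers, whose Pfam annotation held a SET domain, a histone deacetylase domain, a JmjC domain, the MOZ/SAS family, a bromodomain, the word Chromo or a PHD-finger, with a mean of at least 0.1 FPKM (fragments scaled to the length of the transcript and the size of the library) over the 6 libraries. There were 68 such unigenes from 59 assembled genes, out of 20581 unigenes with FPKM. They comprised 13 unigenes with a SET domain, 4 with a deacetylase domain, 8 with a JmjC domain, 3 of the MOZ/SAS family, 11 with a bromodomain, 7 with a chromodomain and 10 with a PHD-finger. The remaining 12 matched by a word alone, mostly chromosome or minichromosome, and are not known as chromatin modifiers, so 56 unigenes carried one of the intended domains. The lowest mean among the 68 was 0.28 FPKM. A further SET-domain unigene had no FPKM and was not analysed here, and no other unigene with these words lay below the limit.

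DNA in the nucleus is wound on histones, and small groups added to histone tails change how readily a gene is read. Writers add the groups (SET-domain methyltransferases, MOZ/SAS and GCN5 acetyltransferases), erasers remove them (histone deacetylases, JmjC demethylases), and readers bind them through bromodomains, chromodomains or PHD-fingers. In filamentous fungi such enzymes are known to act on clusters of secondary metabolite genes, among which are those for the azaphilone pigments of *Monascus*.

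RNA was sequenced by de novo RNA-Seq, in which transcripts are assembled from the reads without a genome, from mycelia of the wild-type strain MP2022 at day 1 of culture in fermentation medium. The taurine group (3 libraries) received 4.0 g/L taurine and the control group (3 libraries) received none, so the comparison asks which transcripts differed with taurine. The labels do not say whether the libraries of a group came from separate cultures, so p-values measure only the spread between these libraries. Each RNA is a bulk sample, in which fewer cells of a kind and less RNA per cell cannot be told apart.

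FPKM summed to between 797244 and 865009 per library, lowest in control replicate 2, and about 18800000 to 19200000 fragments per library were estimated from the steps between low values. Among the 14588 tested unigenes averaging 1 FPKM or more, control replicate 2 was the highest library for 29.3% and the lowest for 32.8%, and control replicate 1 was the highest for 17.7% and the lowest for 29.0%. Where leaving out control replicate 2 moved a printed log2 fold change of the 68 unigenes by more than 0.05, both values are given. Pfam lists 1 domain per unigene in this table, so a protein with several domains is counted once and under that domain only.

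No difference between taurine and control passed the test for any of the 68 unigenes. At an adjusted p of at most 0.05 (limma on log2(FPKM + 1), Benjamini-Hochberg over all tested unigenes) 0 of 68 were called, against 8 of 20381 tested unigenes (0.0393%), and the limma adjusted p was 0.999 for each of the 68. At an unadjusted p under 0.05 the count was also 0 of 68, against 2.66% of all tested unigenes (1.63% higher and 1.03% lower with taurine), and the lowest unadjusted limma p was 0.143. The log2 fold change, taurine minus control on the log2(FPKM + 1) scale, ran from -0.44 to 0.40 with a median of 0.028, beside a median of 0.022 over all tested unigenes. It was above 0 for 40 and below 0 for 28 of the 68, beside 54.2% above 0 in all. The groups did not overlap for 4 of 68 (5.88%), 3 higher and 1 lower with taurine, against 6.41% of all tested unigenes (3.78% higher and 2.62% lower), so the share was near the background. Without control replicate 2, which leaves 2 control libraries against 3, they did not overlap for 10 of 68, against 17.0% of all tested unigenes.

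The intervals set how large a change these libraries leave room for. The 95% interval of the log2 fold change lay inside -1 to 1 for 62 of the 68, against 58.5% of all tested unigenes. Among the 59 averaging 1 FPKM or more it did so for 57, against 68.1% of all tested unigenes at that level. The 6 exceptions were 4 unigenes with a mean FPKM under 1, the weaker HOS3 isoform and a second ASH1L-type unigene. Since 1 is added before the logarithm, the scale understates the change of weak unigenes, also above a mean of 1 FPKM. With 0.1 added instead, the interval lay inside -1 to 1 for 51 of the 68, all of them among the 59, against 40.1% of all tested unigenes.

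**Figure D1:**
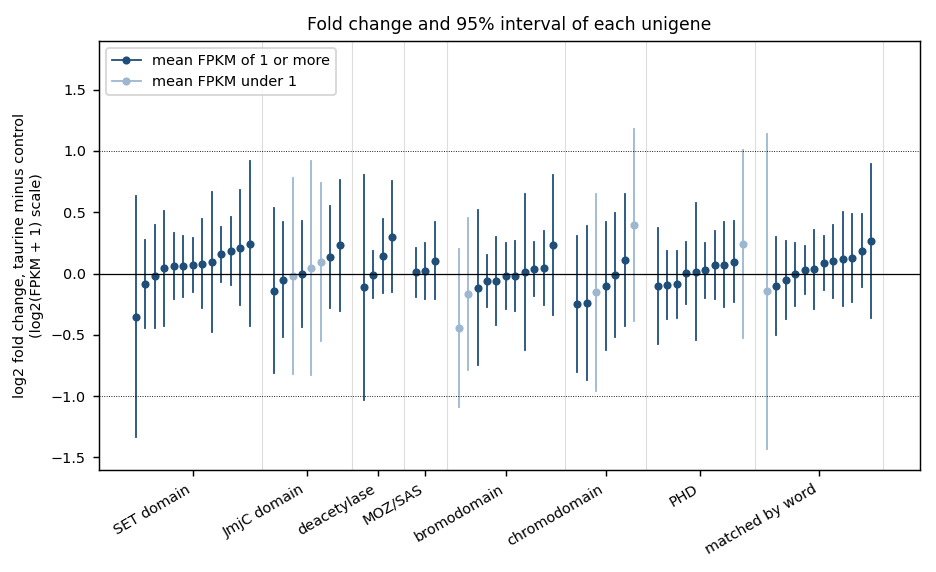
Log2 fold change of each of the 68 unigenes, taurine minus control on the log2(FPKM + 1) scale (vertical axis), sorted within each class, with points for the estimate and lines for the limma 95% interval from 3 control and 3 taurine libraries. Pale points have a mean FPKM under 1, dotted lines mark -1 and 1, and every interval crosses 0.

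The transcripts were mostly above the typical unigene of this table. Their median mean FPKM was 8.06, against 2.45 over all tested unigenes, and 50 of the 68 lay above that overall median. A median of 400 estimated fragments per library stood behind each of them, against 43.8 over all tested unigenes. Of the 56 with an intended domain, 22 averaged 10 FPKM or more and 8 a mean under 1. The median coefficient of variation over the 68 was 13.5% among the control and 8.40% among the taurine libraries. It was larger in the control for 45 of them (66.2%), beside 12143 of all 20381 tested unigenes. Among the 59 averaging 1 FPKM or more it was larger in the control for 37, beside 9571 of 14588 tested unigenes (65.6%) at that level.

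**Figure D2:**
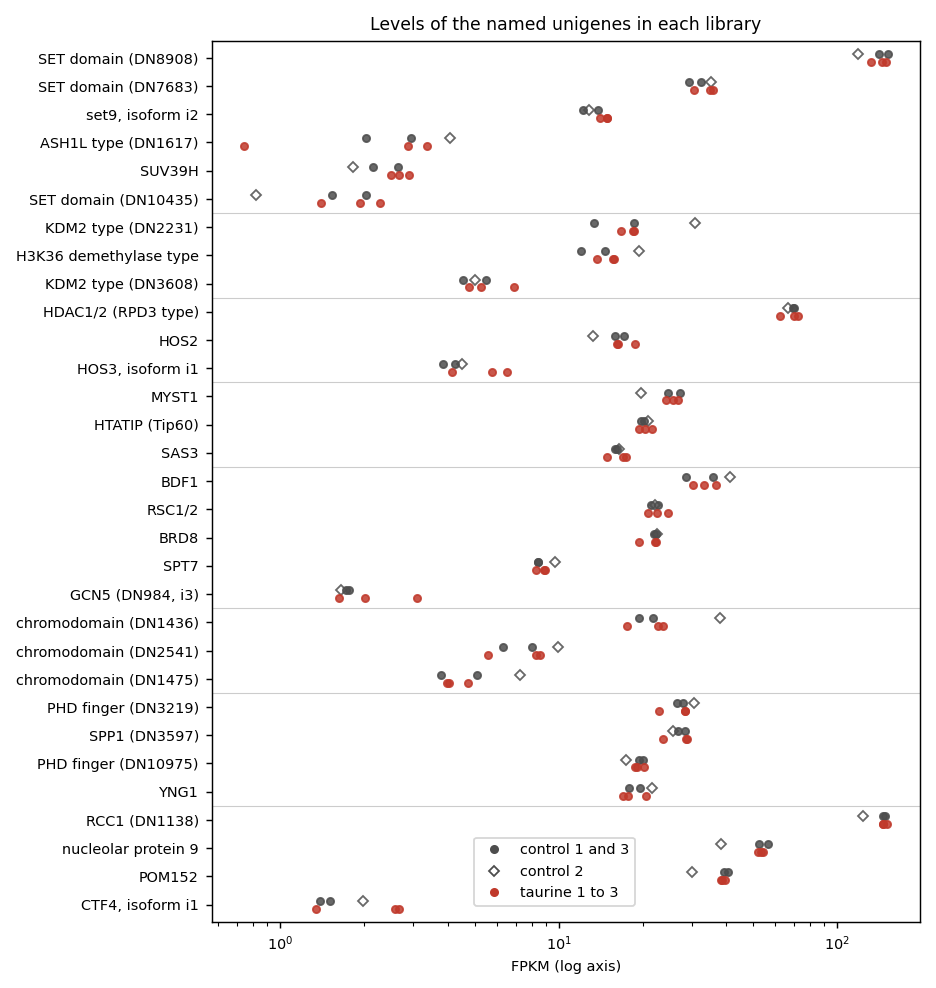
FPKM of the 31 named unigenes in each library on a log axis, with filled grey circles for control replicates 1 and 3, an open diamond for control replicate 2 and red circles for the 3 taurine libraries, in blocks from SET domain (top) to the unigenes matched by word (bottom). Control and taurine points lie over each other for nearly all unigenes, apart from set9 isoform i2, while the diamond lies outside the other libraries for several.

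Among the methyltransferases with a SET domain, the highest unigene was TRINITY_DN8908_c0_g1_i1-S3A, which has no KEGG entry and whose substrate is unknown. It was at 141, 119 and 152 FPKM in control replicates 1 to 3 and at 150, 145 and 132 FPKM with taurine. The lowest value was that of control replicate 2, and the groups overlapped, with a log2 fold change of 0.058 (SE 0.11) that was -0.041 without control replicate 2. The second, TRINITY_DN7683_c0_g1_i1-S3A, entered in KEGG as uncharacterized, had a mean of 32.3 ± 2.9 FPKM (SD, n = 3) in the control and 33.7 ± 2.8 FPKM (SD, n = 3) with taurine.

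The gene set9 encodes the methyltransferase of lysine 20 of histone H4, a mark linked in fission yeast to the DNA damage response. Its stronger isoform, TRINITY_DN1157_c0_g1_i2-C3A, was at 13.9, 12.9 and 12.2 FPKM in the control and at 14.9, 14.9 and 14.03 FPKM with taurine. All 3 taurine libraries lay above all 3 control libraries, by a log2 fold change of 0.16 (SE 0.094, 95% interval -0.070 to 0.38). This was the lowest p of the 68, with an unadjusted limma p of 0.143 and an adjusted limma p of 0.999, and with 3 libraries against 3 the exact permutation test cannot go below 0.1. Its weaker isoform, TRINITY_DN1157_c0_g1_i1-C3A, was at 4.21, 4.28 and 5 FPKM in the control and at 4.48, 4.18 and 3.86 FPKM with taurine. The isoforms thus had opposite signs, and the groups overlapped for their sum, at 17.5 ± 0.51 FPKM (SD, n = 3) in the control and 18.8 ± 0.77 FPKM (SD, n = 3) with taurine.

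SUV39H writes the methyl mark on lysine 9 of histone H3 that marks heterochromatin. Its only unigene, TRINITY_DN9825_c0_g1_i1-C3A, was at 2.65, 1.82 and 2.15 FPKM in the control and at 2.91, 2.68 and 2.5 FPKM with taurine. The taurine values overlapped the highest control value, and the log2 fold change was 0.21 (95% interval -0.26 to 0.68), or 0.12 without control replicate 2. ASH1L-type methyltransferases, which KEGG enters for lysine 4 of histone H3, had 2 unigenes with the same best protein match. TRINITY_DN2178_c0_g1_i2-C1A was nearly level, from 12.2 to 13.4 FPKM in the control and from 13.4 to 13.9 FPKM with taurine. TRINITY_DN1617_c0_g1_i5-C3A had the largest fall among unigenes averaging 1 FPKM or more, at 2.04, 4.08 and 2.95 FPKM in the control and 2.87, 0.74 and 3.36 FPKM with taurine. That log2 fold change of -0.35 (95% interval -1.34 to 0.64) rests on taurine replicate 2, without which it was 0.061, and it was -0.17 without control replicate 2. With 0.1 in place of 1 added before the logarithm it was -0.55. The sum of the 2 unigenes was 16.0 FPKM in both groups (SD 1.26 in the control and 1.29 with taurine, n = 3).

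The other SET-domain unigenes ranged from 1.19 to 10.7 FPKM in the mean. TRINITY_DN6796_c0_g1_i1-S1A, named protein-histidine methyltransferase, was at 12.6, 8.10 and 11.9 FPKM in the control and at 10.9, 10.7 and 9.84 FPKM with taurine. Its control replicate 2 lay below all other libraries and the 2 other controls above them, so that leaving out control replicate 2 moved the log2 fold change from -0.024 to -0.20. TRINITY_DN4889_c0_g1_i1-S2A, of unknown substrate, was at 8.20, 7.17 and 8.22 FPKM in the control and at 8.60, 9.63 and 8.89 FPKM with taurine. Its groups did not overlap, with a log2 fold change of 0.18 (SE 0.11), or 0.12 without control replicate 2. TRINITY_DN10435_c0_g1_i1-C1A, also of unknown substrate, had a log2 fold change of 0.24 (95% interval -0.43 to 0.91) with overlapping groups, from 0.82 to 2.03 FPKM in the control and from 1.40 to 2.29 FPKM with taurine. Without control replicate 2 that value was 0.040. Of the 13 SET-domain unigenes, 10 had a log2 fold change above 0, and 8 did without control replicate 2, which was the lowest library for 7 of them.

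The 3 acetyltransferases of the MOZ/SAS family lay at 16.4 to 24.7 FPKM in the mean, and their groups differed by less than the spread between libraries. MYST1 (TRINITY_DN4009_c0_g1_i1-C3A) was at 27.3, 19.7 and 24.6 FPKM in the control and at 25.6, 26.8 and 24.2 FPKM with taurine. HTATIP (TRINITY_DN8231_c0_g1_i1-S1A), the counterpart of yeast Esa1 in the NuA4 complex, was at 20.3, 21.0 and 19.8 FPKM in the control and at 20.5, 21.6 and 19.5 FPKM with taurine. SAS3 (TRINITY_DN2918_c0_g1_i1-S3A), the catalytic subunit of the yeast NuA3 complex, was at 16.0, 16.5 and 16.3 FPKM in the control and at 17.5, 14.9 and 17.1 FPKM with taurine. The groups overlapped for each, and the log2 fold changes of 0.11, 0.0090 and 0.019 had intervals within -0.21 to 0.42. The value for MYST1 turned to -0.019 without control replicate 2, its lowest library.

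GCN5, the acetyltransferase of the SAGA complex, reads acetylated lysine through its own bromodomain and had 7 unigenes under its KEGG entry. Only 4 of the 7 had a best protein match named Gcn5, and these summed to means of 4.59 FPKM in the control and 4.28 FPKM with taurine. The strongest of the 7, TRINITY_DN1276_c0_g1_i4-C1A, had a best match named only histone acetyltransferase. It was at 20.7, 16.5 and 16.7 FPKM in the control and at 16.7, 17.2 and 19.2 FPKM with taurine. Over all 7 the sum was 36.6, 32.9 and 31.9 FPKM in the control and 35.3, 33.4 and 32.3 FPKM with taurine, so that the means of 33.8 and 33.7 FPKM nearly coincided. A weak isoform, TRINITY_DN984_c0_g2_i1-C1A, had the largest fall of the 68, at 0.70, 0.54 and 0.19 FPKM in the control and at 0, 0 and 0.24 FPKM with taurine. Its log2 fold change of -0.44 (95% interval -1.09 to 0.20) rests on a mean of 6.78 estimated fragments per library. The other isoform of the same assembled gene, TRINITY_DN984_c0_g2_i3-C1A, went the other way, from 1.66 to 1.76 FPKM in the control and from 1.62 to 3.09 FPKM with taurine (log2 fold change 0.23, SE 0.24).

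Deacetylases remove the acetyl groups. HDAC1/2, the RPD3-type enzyme (TRINITY_DN6806_c0_g1_i1-S1A), was the strongest eraser, at 69.2, 66.6 and 70.1 FPKM in the control and at 70.2, 62.5 and 72.1 FPKM with taurine. The groups lay over each other, with a log2 fold change of -0.0097 (95% interval -0.20 to 0.18). HOS2 (TRINITY_DN3775_c0_g1_i2-C3A), the deacetylase of the yeast Set3 complex, was at 17.2, 13.3 and 15.9 FPKM in the control and at 18.8, 16.2 and 16.4 FPKM with taurine. Its log2 fold change of 0.14 (SE 0.12) was 0.044 without control replicate 2, the lowest of its libraries.

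HOS3 was the deacetylase with the largest difference. Its stronger isoform, TRINITY_DN3073_c0_g1_i1-S1A, was at 4.24, 4.48 and 3.84 FPKM in the control and at 5.76, 4.13 and 6.51 FPKM with taurine. Taurine replicate 2 lay among the control values, and the log2 fold change was 0.30 (95% interval -0.15 to 0.75), the largest rise among unigenes averaging 1 FPKM or more. The weaker isoform, TRINITY_DN3073_c0_g1_i2-S1A, was at 0.93, 1.23 and 1.51 FPKM in the control and at 1.22, 2.10 and 0.24 FPKM with taurine, highest in the library where the stronger one was low. The 2 isoforms summed to 5.17, 5.71 and 5.35 FPKM in the control and to 6.98, 6.23 and 6.75 FPKM with taurine. The groups did not overlap for this sum, whose log2 fold change was 0.26 (95% interval -0.033 to 0.54). In a limma fit on assembled genes, with isoforms summed, its unadjusted p was 0.074 and its adjusted p 0.999. The sum was singled out after its values were seen, and the groups did not overlap for 4 of the 59 genes so summed, against 6.11% of all assembled genes.

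Many JmjC proteins are iron-dependent demethylases. The H3 lysine 36 demethylase type (TRINITY_DN1939_c0_g1_i1-C2A), an Rph1-like repressor in yeast terms, was at 12.0, 19.5 and 14.7 FPKM in the control and at 15.8, 13.7 and 15.7 FPKM with taurine. Control replicate 2 was the highest and control replicate 1 the lowest library, and the log2 fold change was -0.0032 with all libraries and 0.17 without control replicate 2. TRINITY_DN2231_c0_g1_i2-C1A is KDM2-type by its KEGG entry, while its best protein match is named PHD finger protein 8. It was at 13.4, 31.0 and 18.7 FPKM in the control and at 18.5, 18.6 and 16.7 FPKM with taurine. Here control replicate 2 alone set the direction, since the log2 fold change was -0.14 (SE 0.28) with it and 0.17 (SE 0.15) without it. Another unigene under the same KEGG entry, TRINITY_DN3608_c0_g1_i1-S2A, was at 5.50, 5.01 and 4.53 FPKM in the control and at 6.90, 5.26 and 4.77 FPKM with taurine, with overlapping groups.

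The other 5 JmjC unigenes had no KEGG entry and shared 1 best match, an unnamed *M. purpureus* protein. Each was weak, with means from 0.47 to 2.84 FPKM, and summed they reached 7.14, 7.41 and 7.55 FPKM in the control and 8.24, 8.09 and 7.22 FPKM with taurine. The groups overlapped for this sum. One of the 5, TRINITY_DN708_c0_g2_i2-S1A, was at 1.79, 3.23 and 2.65 FPKM in the control and at 3.42, 3.26 and 2.69 FPKM with taurine. Its assembled gene, TRINITY_DN708_c0_g2-S1A, had the lowest p of the 59 genes when isoforms were summed, with a log2 fold change of 0.55 (SE 0.19), an unadjusted limma p of 0.028 and an adjusted limma p of 0.999. It was 1 of 59 genes with an unadjusted limma p under 0.05, against 2.46% of all assembled genes. Most of that sum came from another isoform of 275 bases, TRINITY_DN708_c0_g2_i4-S1A, with no Pfam domain and a different best match, at 4.04, 6.93 and 5.75 FPKM in the control and 7.83, 8.98 and 10.1 FPKM with taurine.

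Bromodomain proteins bind acetylated histones. BDF1 (TRINITY_DN2722_c0_g3_i1-C2A), a partner of the general transcription factor TFIID in yeast, was at 28.6, 41.2 and 35.9 FPKM in the control and at 33.3, 30.5 and 36.6 FPKM with taurine. Its highest and lowest libraries were both controls, and the log2 fold change was -0.061 (SE 0.15) with all libraries and 0.056 without control replicate 2. RSC1/2 (TRINITY_DN7468_c0_g1_i1-S2A), of the RSC chromatin remodelling complex, had a mean of 22.1 ± 0.62 FPKM (SD, n = 3) in the control and 22.8 ± 1.9 FPKM (SD, n = 3) with taurine. BRD8 (TRINITY_DN2389_c0_g2_i1-C2A), an acetyltransferase complex subunit in animals, was at 21.9, 22.5 and 22.3 FPKM in the control and at 22.1, 19.4 and 22.4 FPKM with taurine. SPT7 (TRINITY_DN4956_c0_g1_i1-C3A), which holds the SAGA complex together in yeast, had means of 8.84 ± 0.75 and 8.69 ± 0.35 FPKM (SD, n = 3 each). The groups overlapped for all 11 bromodomain unigenes, whose median log2 fold change was -0.020.

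Chromodomains bind methylated histones in proteins such as HP1, and they also occur in the integrases of some retrotransposons. The annotation does not tell these apart here. Only 1 of the 7 had its best match in *Monascus*, against 61 of all 68, and 5 of the 7 had no KEGG entry. The strongest, TRINITY_DN1436_c0_g1_i1-S3A, was at 19.4, 37.9 and 21.9 FPKM in the control and at 22.8, 17.7 and 23.8 FPKM with taurine. TRINITY_DN1475_c0_g1_i2-S2A, matched best by the same *Penicilliopsis* protein, was at 5.07, 7.27 and 3.78 FPKM in the control and at 4.71, 4.04 and 3.97 FPKM with taurine. Both were highest in control replicate 2. Their log2 fold changes were -0.24 (SE 0.26) and -0.25 (SE 0.23) with all libraries, and 0.040 and -0.043 without control replicate 2.

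Another chromodomain unigene, TRINITY_DN2541_c0_g2_i3-S1A, matched best by an *Aspergillus* protein, was at 6.33, 9.92 and 8.01 FPKM in the control and at 8.29, 5.57 and 8.54 FPKM with taurine. It too was highest in control replicate 2, and its log2 fold change turned from -0.10 to 0.039 without that library. TRINITY_DN4422_c0_g3_i1-S1A, named for the helicase CHD4 and the only one of the class matched best in *Monascus*, had the largest rise of the 68, with a log2 fold change of 0.40 (95% interval -0.39 to 1.18), or 0.63 without control replicate 2. It was at 0.37, 0.92 and 0 FPKM in the control and at 1.19, 0.65 and 0.66 FPKM with taurine, with a mean of 4.08 estimated fragments per library. With 0.1 in place of 1 added before the logarithm, its log2 fold change over all libraries was 1.31. Summed over the 7, the level was 34.9, 59.0 and 37.7 FPKM in the control and 39.8, 31.6 and 40.8 FPKM with taurine. The median log2 fold change of the class was -0.10 with all libraries and 0.039 without control replicate 2.

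PHD-fingers read methylated or bare lysine 4 of histone H3. SPP1, the PHD-finger subunit of the COMPASS complex that methylates that lysine, had 2 unigenes. TRINITY_DN3597_c0_g1_i1-S3A was at 26.9, 25.7 and 28.4 FPKM in the control and at 28.9, 23.7 and 28.7 FPKM with taurine. TRINITY_DN3016_c0_g1_i1-S3A was at 9.37, 6.89 and 8.54 FPKM in the control and at 9.11, 8.95 and 8.50 FPKM with taurine. The groups overlapped for both, with log2 fold changes of 0.0032 (SE 0.10) and 0.097, and both fell below 0 without control replicate 2, to -0.031 and -0.014. YNG1 (TRINITY_DN311_c0_g1_i2-C2A), the PHD-finger subunit of NuA3 in yeast, was at 17.9, 21.6 and 19.5 FPKM in the control and at 20.5, 17.7 and 17.0 FPKM with taurine, again with overlap.

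The strongest PHD-finger unigene, TRINITY_DN3219_c0_g1_i1-S2A, whose KEGG entry is an epoxide hydrolase, had means of 28.4 ± 2.1 FPKM in the control and 26.6 ± 3.2 FPKM with taurine (SD, n = 3 each). TRINITY_DN10975_c0_g1_i1-S3A, of unknown role, had means of 19.0 ± 1.4 and 19.3 ± 0.79 FPKM. In TRINITY_DN9531_c0_g1_i1-C2A, also of unknown role, the taurine libraries at 1.63, 1.52 and 1.39 FPKM all lay below the control libraries at 1.65, 1.69 and 1.74 FPKM. Its log2 fold change was -0.10 (SE 0.19). Of the 10 unigenes 7 were above 0 with all libraries and 1 was above 0 without control replicate 2, while the class median moved only from 0.021 to -0.028.

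The 12 unigenes that matched by a word alone held the highest level of the 68. RCC1 (TRINITY_DN1138_c1_g1_i1-S3A), the nucleotide exchange factor of the GTPase Ran, which binds chromatin, was at 147, 124 and 148 FPKM in the control and at 146, 152 and 146 FPKM with taurine. TRINITY_DN11800_c0_g1_i1-C1A is entered in KEGG as nucleolar protein 9, but its listed Pfam domain is the RCC1 repeat and its best protein match is unnamed. It was at 56.5, 38.4 and 52.5 FPKM in the control and at 54.3, 51.8 and 53.2 FPKM with taurine. The nucleoporin POM152 (TRINITY_DN3797_c0_g1_i1-C2A), which entered through the words I-set domain, was at 40.4, 30.02 and 39.2 FPKM in the control and at 38.6, 38.4 and 39.7 FPKM with taurine. In all 3 control replicate 2 was the lowest library, and without it the log2 fold changes of 0.089, 0.13 and 0.098 became 0.0052, -0.037 and -0.034.

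Csm1/Pcs1 acts in chromosome segregation, and KEGG enters the same unigenes as a GPI ethanolamine phosphate transferase. One isoform, TRINITY_DN225_c0_g1_i1-S1A, was at 14.2, 11.5 and 14.2 FPKM in the control and at 14.6, 14.5 and 16.7 FPKM with taurine, without overlap. Its log2 fold change of 0.19 (SE 0.12) was 0.093 without control replicate 2, its lowest library. The other, TRINITY_DN225_c0_g1_i2-S1A, had a log2 fold change of -0.10 with overlapping groups, or -0.25 without control replicate 2. CTF4, a replication fork protein, had a weak isoform, TRINITY_DN1864_c0_g1_i1-S3A, at 1.51, 1.99 and 1.39 FPKM in the control and at 2.59, 1.35 and 2.67 FPKM with taurine (log2 fold change 0.26, SE 0.26, or 0.36 without control replicate 2). Its main isoform, TRINITY_DN1864_c0_g1_i2-S3A, held 86.1% to 92.3% of the gene's FPKM and had means of 16.0 ± 0.52 and 16.4 ± 0.33 FPKM (SD, n = 3 each).

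Summed by class, the groups overlapped in every class. The SET-domain unigenes summed to 235 ± 18.6 FPKM in the control and 245 ± 9.7 FPKM with taurine, and the deacetylases to 89.5 ± 3.4 and 92.0 ± 6.2 FPKM (SD, n = 3 each). The JmjC sum was 48.8 ± 12.7 FPKM in the control, where control replicate 2 reached 62.9 FPKM and the others 38.0 and 45.4 FPKM, and 46.5 ± 2.6 FPKM with taurine. For all 56 unigenes with an intended domain the sum was 731 ± 14.3 FPKM in the control and 734 ± 30.6 FPKM with taurine.

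**Figure D3:**
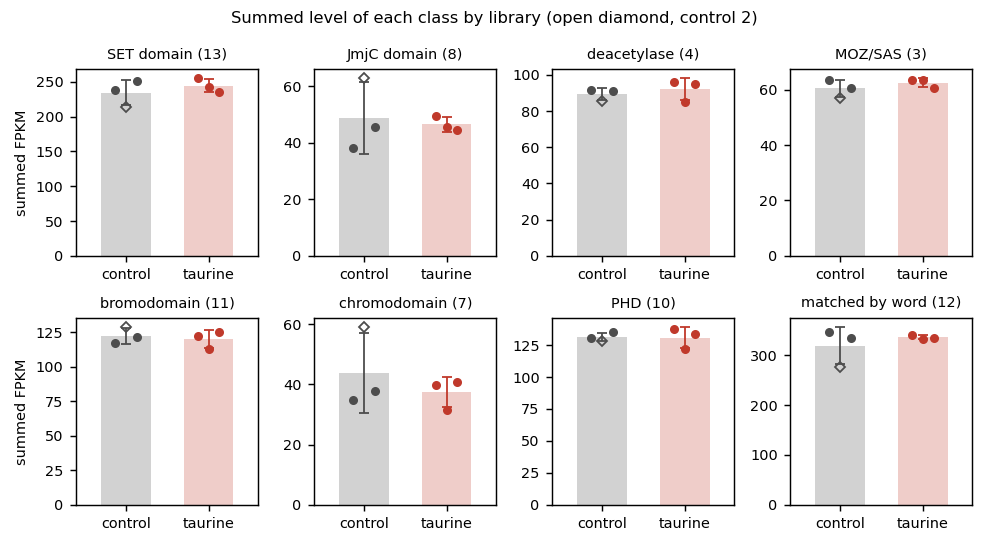
Summed FPKM of each class (vertical axes start at 0; number of unigenes in brackets) in the control and taurine groups, with bars for the mean, lines for the SD of 3 libraries and points for single libraries, control replicate 2 as an open diamond. The diamond is the highest of the 6 libraries for the JmjC, bromodomain and chromodomain sums and the lowest for the SET, MOZ/SAS and word-match sums.

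Control replicate 2 was the highest library for 16 (23.5%) and the lowest for 27 (39.7%) of the 68, beside 28.4% and 29.1% over all tested unigenes. Among the 59 averaging 1 FPKM or more the shares were 27.1% and 39.0%, beside 29.3% and 32.8% over all tested unigenes at that level. Control replicate 1 was the highest for 15 and the lowest for 8, and control replicate 3 the highest for 6 and the lowest for 9. By class, control replicate 2 was the highest for 4 of 7 chromodomain unigenes and 3 of 8 JmjC unigenes, and the lowest for 9 of 12 word matches and 7 of 13 SET-domain unigenes. Without it, 35 of the 68 lay above 0 and 33 below. The median log2 fold change was then 0.0040, and 0 of 68 had an unadjusted limma p under 0.05. The share of all unigenes under that p without control replicate 2 is not given. The part of this library's RNA or handling in these values was not tested.

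**Figure D4:**
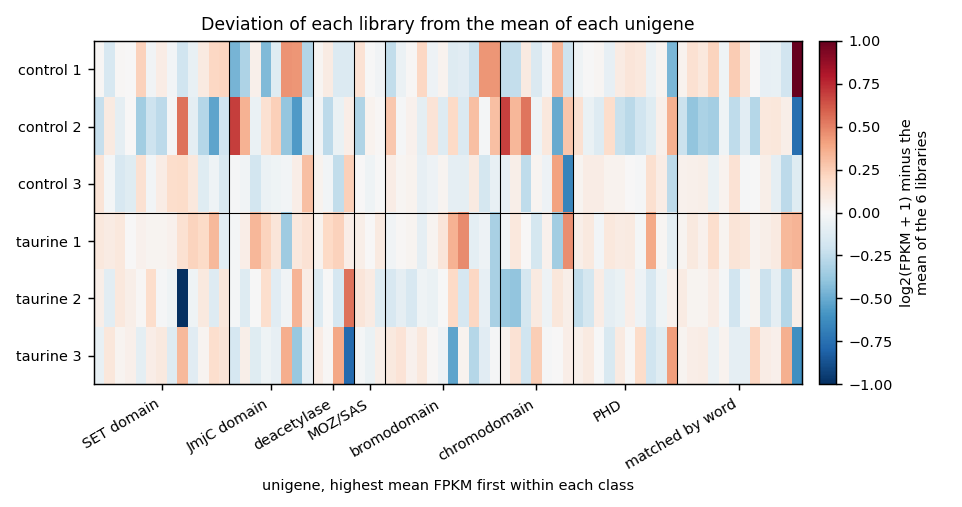
Deviation of each library from the mean of the 6 libraries on the log2(FPKM + 1) scale (colour, which stops at -1 and 1) for the 68 unigenes, in columns grouped by class with the highest mean FPKM first. Columns show no shared shift between the upper block (control) and the lower block (taurine), and the row of control replicate 2 holds strong red for the leading JmjC and chromodomain unigenes and blue for the leading word matches.

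Several known chromatin enzymes fell outside the rule, because the annotation lists another domain of theirs. They were looked up by name after other values had been seen. SET1 (TRINITY_DN4231_c0_g2_i1-C2A), the COMPASS methyltransferase of lysine 4 of histone H3, was at 19.8, 19.3 and 19.8 FPKM in the control and at 20.4, 19.3 and 19.6 FPKM with taurine. SET2 (TRINITY_DN3478_c0_g1_i1-C1A), the lysine 36 methyltransferase, was at 22.6, 25.2 and 23.9 FPKM in the control and at 24.9, 23.2 and 24.1 FPKM with taurine. DOT1 (TRINITY_DN8712_c0_g1_i1-C2A), HAT1 (TRINITY_DN1813_c0_g1_i1-S3A), HDA1 (TRINITY_DN1251_c0_g1_i1-C2A) and the KDM5-type demethylase (TRINITY_DN1478_c0_g1_i2-S2A) had log2 fold changes of 0.025, 0.085, -0.016 and 0.064. Outside the rule 4 unigenes were named HDA1 and 3 were KDM5-type, and only the highest of each is given. JmjC domain-containing histone demethylation protein 1 (TRINITY_DN2804_c0_g2_i1-C2A), under the same KEGG entry as TRINITY_DN2231_c0_g1_i2-C1A, had a log2 fold change of -0.012. The groups overlapped for each of the unigenes named here.

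Other chromatin genes outside the rule were counted from a list of Pfam words. Of 85 tested unigenes, 0 were called by limma at an adjusted p of at most 0.05, against 0.0393% of all tested unigenes. An unadjusted limma p under 0.05 was reached by 0 in either direction, against 2.66% of all. Their median log2 fold change was 0.026, beside 0.022 over all tested unigenes, and 51 lay above 0, beside 54.2% of all. By these words the list held 38 SNF2, 14 HMG-box, 9 core histone, 6 sirtuin, 6 SWIRM and 4 YEATS unigenes. It also held 3 cytosine methylase, 3 nucleosome assembly protein and 1 ASF1 chaperone unigenes, and DOT1. Whether each SNF2 unigene encodes a chromatin remodelling enzyme was not checked. The strongest core histone, a histone H3 (TRINITY_DN679_c0_g2_i1-C1A), had means of 2077 ± 137 FPKM in the control and 2133 ± 76.4 FPKM with taurine (SD, n = 3 each). The strongest sirtuin, an NAD-dependent deacetylase (TRINITY_DN3569_c0_g1_i1-C3A), had means of 53.4 ± 2.7 and 50.0 ± 3.4 FPKM, with a log2 fold change of -0.096 (95% interval -0.30 to 0.11).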

How the data were processed

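The authors assembled the reads into unigenes and deposited 1 table with the FPKM of each unigene in each of the 6 libraries and its Pfam, KEGG and NR annotation. Per the submitters' processing notes the tools were Bowtie2 2.2.5, RSEM 1.2.8 and DESeq. FPKM is scaled to transcript length and library size and is no count, and isoforms of 1 gene can share fragments that the estimate splits between them. The same table holds the authors' own fold changes and tests, which were not used. Fold changes listed with the study have the opposite sign to taurine minus control in these columns, so each direction given here depends on the column names. All FPKM columns matched a label, with 0 left over.

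FPKM was taken as log2(FPKM + 1). The 20381 unigenes averaging 0.1 FPKM or more were fitted with limma 3.58.1 (trend) in R 4.3.3, and two-sided p-values were adjusted by Benjamini-Hochberg over all of them. Isoform sums, class sums and counts were made with Python 3.11.15 and pandas 2.3.3, and figures with matplotlib 3.10.9. Fragments per library were estimated from the step sizes among low values in unigenes of 400 to 1500 bases. Between 51.8% and 56.9% of those values came within 0.1 of a whole number, against 20% if spread evenly, so the fragments are approximate. In a simulation of this comparison over 16431 unigenes, a log2 shift of 2 was given to 200, of which the fit called 200 in the right direction, together with 9 unshifted ones. The 200 were drawn only from unigenes averaging 10 FPKM or more, with the same dispersion for each and no outlying library. Of the 68 chromatin unigenes, 30 reached that level. The simulation therefore cannot tell whether smaller shifts, or shifts of weaker unigenes, would be called. The 15 alternatives were another pseudocount, other filters on low values, TPM, quantile normalization, summed isoforms, a replicate block, sample quality weights, voom on estimated fragments, and each library left out in turn.

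Classes followed the listed domain. Named were the 3 highest unigenes of each class from different assembled genes, the 3 largest rises and falls among unigenes of at least 500 bases averaging 1 FPKM or more, and the highest match to each of 26 known enzymes (9 matched). Others are given where a value stood out after being seen. Members and lists were chosen with earlier results of these data known. No gene sequence was used, and none of the 68 best matches carried a locus tag of the RefSeq gene table.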

Additional observations from a re-analysis of the deposited data

How the results depend on the processing

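Under each of the 15 alternatives 0 chromatin unigenes were called, of 68 in 13 alternatives, of 59 at a minimum mean of 1 FPKM and of 59 genes with isoforms summed, and the lowest adjusted limma p any of them reached was 0.366, for TRINITY_DN4422_c0_g3_i1-S1A with sample quality weights. The count at an unadjusted limma p under 0.05 was 1 of 59 genes with isoforms summed, against 2.46% of all assembled genes. It was 1 with voom on estimated fragments (TRINITY_DN984_c0_g2_i1-C1A) and 3 with sample quality weights. With 1 library left out it was 0 to 1 (1 without taurine replicate 2). The shares of all unigenes under that p are not given for these other settings, so their counts have no background beside them. The median log2 fold change stayed between 0.0023 and 0.061. Over all unigenes the count of calls was 0 with voom, 15 with sample quality weights, and 3 to 16 with 1 library left out (3 without taurine replicate 1, 5 without control replicate 3, 13 without taurine replicate 2, 16 without control replicate 2). With the replicate block 0 unigenes were called over all and 0 chromatin unigenes. Same-numbered libraries correlated at -0.022, -0.034 and -0.0085 in their deviations from the group means, so no shared replicate effect was seen. The labels do not say whether same-numbered libraries were handled together, and these correlations cannot tell.

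Of the 31 named unigenes 10 kept their sign in every alternative and 21 changed it in at least 1. With 1 library left out the log2 fold changes ran from -0.033 to 0.068 for TRINITY_DN10975_c0_g1_i1-S3A, -0.037 to 0.24 for TRINITY_DN11800_c0_g1_i1-C1A and -0.43 to 0.040 for TRINITY_DN1436_c0_g1_i1-S3A. They ran from -0.60 to 0.061 for TRINITY_DN1617_c0_g1_i5-C3A, -0.16 to 0.17 for the H3 lysine 36 demethylase type and -0.41 to 0.17 for TRINITY_DN2231_c0_g1_i2-C1A. For BRD8 they ran from -0.099 to 0.00047 and for TRINITY_DN2541_c0_g2_i3-S1A from -0.25 to 0.070. They ran from -0.20 to 0.056 for BDF1, -0.022 to 0.085 for SAS3, -0.15 to 0.0068 for TRINITY_DN3219_c0_g1_i1-S2A, -0.044 to 0.093 for SPP1 (TRINITY_DN3597_c0_g1_i1-S3A), -0.034 to 0.18 for POM152, -0.019 to 0.20 for MYST1, -0.052 to 0.042 for SPT7, -0.050 to 0.052 for HDAC1/2, -0.023 to 0.090 for RSC1/2, -0.0050 to 0.13 for TRINITY_DN7683_c0_g1_i1-S3A, -0.028 to 0.045 for HTATIP and -0.041 to 0.14 for TRINITY_DN8908_c0_g1_i1-S3A. Quantile normalization gave -0.0034 for SAS3, -0.017 for SPP1 and -0.017 for HTATIP, and rescaling to TPM gave -0.010 for SPP1 and -0.0044 for HTATIP. Sample quality weights gave -0.051 for TRINITY_DN10975_c0_g1_i1-S3A, 0.060 for TRINITY_DN1475_c0_g1_i2-S2A, 0.064 for the H3 lysine 36 demethylase type, -0.033 for SPP1, 0.040 for SPT7 and -0.074 for TRINITY_DN8908_c0_g1_i1-S3A. The cause was not tested.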

Other observations

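Chromodomains also occur in retrotransposon integrases, so the unigenes with other retroelement domains were looked at after the chromodomain values had been seen. The 18 tested unigenes with a reverse transcriptase domain, the polymerase that copies element RNA into DNA, summed to 434, 618 and 488 FPKM in control replicates 1 to 3 and to 503, 459 and 493 FPKM in taurine replicates 1 to 3. Control replicate 2 was the highest library for 13 of these 18 (72.2%), against 28.4% of all tested unigenes. How many of the 18 share an assembled gene or a best protein match was not counted. For the chromodomain unigenes control replicate 2 was the highest for 4 of 7 (57.1%). Of those 4, 2 were isoforms of 1 assembled gene and the other 2 shared 1 best protein match. Whether the chromodomain unigenes belong to such elements was not tested. The 14 with an integrase zinc binding domain summed to 37.7, 46.9 and 42.2 FPKM in the control and to 43.2, 41.8 and 43.5 FPKM with taurine, and control replicate 2 was the highest for 6 of them.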
